A study of Mus musculus with 43 samples.

Results

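Hepatic fat synthesis was followed through 10 mouse genes, the enzymes of lipogenesis and their regulators. They were chosen by name: each row of the 2 deposited tables whose gene symbol equals Srebf1, Mlxipl, Thrsp, Acly, Acaca, Acacb, Fasn, Gpam, Dgat2 or Pnpla3 was taken. All 10 were found, among 14622 genes in hemizygous livers and 13741 genes in homozygous livers. The study sequenced liver RNA of PiZ mice, whose transgene encodes human alpha-1-antitrypsin in its Z form, with or without loss of the insulin receptor (LIRKO, liver insulin receptor knockout) and, in 1 group, of Foxo1 as well (F1KO). Its comparisons ask how the transgene and hepatic insulin signalling act on liver gene expression.

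The hemizygous table holds Z LIRKO F1KO (5 mice, Z transgene with both deletions), Z LIRKO (4 mice), Zstar (5 mice, a second PiZ group that the labels write as Z*), Z (5 mice), LIRKO (4 mice) and WT (3 mice). The homozygous table holds ZZ LIRKO (7 mice), ZZ (3 mice), LIRKO (4 mice) and WT (3 mice). Every mouse was a male of 4 to 5 months on a mixed C57BL6/J x FVBN strain. The WT and LIRKO mice are the same 7 animals in both tables, so the 43 libraries come from 36 mice. Z LIRKO F1KO and Zstar carry the cohort label F1IRZZ, and the other hemizygous groups carry IRZZ. A contrast between Z LIRKO F1KO and Z LIRKO, or between Zstar and Z or WT, therefore crosses cohorts, and cohort and genotype cannot be told apart there. The promoter that drives each deletion, the site of the transgene and the meaning of the asterisk are unstated in the labels.

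De novo lipogenesis turns carbohydrate into fat. ATP citrate lyase (Acly) exports citrate carbon as cytosolic acetyl-CoA, the acetyl-CoA carboxylases make malonyl-CoA (Acaca for synthesis in the cytosol, Acacb at the mitochondrion, where malonyl-CoA restrains fatty acid oxidation), and fatty acid synthase (Fasn) builds palmitate. Glycerol-3-phosphate acyltransferase 1 (Gpam) begins and diacylglycerol acyltransferase 2 (Dgat2) completes triglyceride assembly, and Pnpla3 encodes a lipid droplet protein whose gene is a classic target of the pathway. In liver, insulin acts through SREBP-1c, a product of Srebf1, while glucose acts through ChREBP, the product of Mlxipl; Thrsp encodes Spot 14, a small protein known for rapid induction by carbohydrate, insulin and thyroid hormone. A gene-level value does not separate SREBP-1c from SREBP-1a, or the alpha and beta forms of ChREBP.

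On GRCm38 with the GENCODE annotation the members lie on 5 chromosomes. The 4 genes on chromosome 11 are Srebf1 (60199089 to 60222581), Acaca (84129672 to 84401651), Acly (100476353 to 100528000) and Fasn (120805846 to 120824547). Chromosome 5 holds Acacb (114146535 to 114250761) and Mlxipl (135089890 to 135138382), and chromosome 7 holds Thrsp (97412938 to 97417730) and Dgat2 (99153658 to 99182719). Gpam lies on chromosome 19 (55067268 to 55127238) and Pnpla3 on chromosome 15 (84167837 to 84187236).

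Promoters of 300 bases, from 250 before the start of transcription to 50 after it, were found for 9 of the 10 members in the RefSeq table for GRCm38.p6. They are shown for Thrsp, the member whose level differed most between groups, for the 2 starts of Mlxipl, which fell in homozygous livers, and for Fasn, which passed the test in no comparison. Each is written 5′ to 3′ on the strand of the gene, and capitals mark matches to the motifs listed after them.
Thrsp, chr7:97417501-97417800, minus strand: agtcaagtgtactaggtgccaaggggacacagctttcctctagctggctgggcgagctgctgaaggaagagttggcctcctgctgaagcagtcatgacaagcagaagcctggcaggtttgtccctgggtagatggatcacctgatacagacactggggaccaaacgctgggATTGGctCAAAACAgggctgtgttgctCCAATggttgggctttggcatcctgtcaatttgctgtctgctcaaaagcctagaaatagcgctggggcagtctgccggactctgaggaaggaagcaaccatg
Mlxipl at its upstream start, chr5:135089640-135089939, plus strand: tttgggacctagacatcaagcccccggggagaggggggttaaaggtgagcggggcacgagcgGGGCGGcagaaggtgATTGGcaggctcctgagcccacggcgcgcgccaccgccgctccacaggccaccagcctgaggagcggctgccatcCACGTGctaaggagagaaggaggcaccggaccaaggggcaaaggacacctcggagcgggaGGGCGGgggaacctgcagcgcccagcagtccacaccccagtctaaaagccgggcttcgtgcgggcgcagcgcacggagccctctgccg
Mlxipl at its downstream start, chr5:135106641-135106940, plus strand: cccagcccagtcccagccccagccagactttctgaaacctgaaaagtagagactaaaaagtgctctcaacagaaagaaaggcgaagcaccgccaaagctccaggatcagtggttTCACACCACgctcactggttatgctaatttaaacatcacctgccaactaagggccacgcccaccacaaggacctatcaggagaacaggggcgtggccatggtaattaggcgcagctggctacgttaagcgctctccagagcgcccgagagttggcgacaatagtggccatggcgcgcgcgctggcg
Fasn, chr11:120824498-120824797, minus strand: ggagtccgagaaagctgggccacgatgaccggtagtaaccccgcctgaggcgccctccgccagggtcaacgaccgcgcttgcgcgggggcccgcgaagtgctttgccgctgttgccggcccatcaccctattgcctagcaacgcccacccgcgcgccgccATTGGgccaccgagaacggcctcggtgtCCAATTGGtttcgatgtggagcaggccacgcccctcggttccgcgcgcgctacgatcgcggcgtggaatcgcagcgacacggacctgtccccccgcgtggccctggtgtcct

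The motifs were searched on both strands. They are the sterol regulatory element core TCACNCCAC known from SREBP targets, the E-box CACGTG, the NF-Y box CCAAT, the forkhead motif TGTTTAC, the insulin response motif TGTTTTG and the GC box GGGCGG. The Thrsp promoter held NF-Y boxes that begin 79 and 52 bases before the start, with an insulin response match between them, 72 bases before it. Among all 32851 promoters of the table, 37.41% held an NF-Y box and 6.28% an insulin response motif. The Fasn promoter held 3 NF-Y boxes, at 90, 62 and 59 bases before the start, of which the last pair overlaps. The sterol core was found only in the downstream Mlxipl promoter, 136 bases before the start, and the E-box only in the upstream one, 98 bases before it, among the 13 member promoters. Of all promoters 1.24% held the sterol core, 7.15% the E-box, 3.65% the forkhead motif and 35.66% a GC box. No member promoter held the forkhead letters in this window. A match describes letters and not a bound site.

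The deposited values are log2 CPM, the log2 of reads scaled to a common library total, so 1 unit is a doubling. Hemizygous libraries held 13834431 to 23938315 reads and homozygous ones 38177840 to 90092990, so that 3 reads correspond to about -2.47 log2 CPM in the first and -4.21 in the second. Insr checked the labels: it was lower by 1.16 ± 0.12 log2 units (SE) in LIRKO than in WT and by 1.25 ± 0.10 in Z LIRKO than in Z, and Foxo1 was lower by 2.77 ± 0.13 in Z LIRKO F1KO than in Zstar. Insr was also lower by 0.52 ± 0.13 in ZZ than in WT and by 0.64 ± 0.10 in Z LIRKO F1KO than in Z LIRKO. Hepatocyte markers Alb, Apob, Ttr, Apoa1 and Serpinc1 were present in every library, with summed levels of 45700 to 75720 CPM in LIRKO and 105900 to 126200 CPM in WT of the hemizygous table. A clock value was kept for each library, the mean log2 CPM of 5 late clock genes (Dbp, Tef, Per3, Nr1d2 and Hlf) minus that of 5 early ones (Arntl, Npas2, Clock, Cry1 and Nfil3). It averaged 3.14 in Z LIRKO F1KO, 3.20 in Z LIRKO, 2.91 in Zstar, 2.39 in Z, 3.19 in LIRKO and 0.29 in WT. In the homozygous table it averaged 1.55 in ZZ LIRKO, 0.17 in ZZ, 3.40 in LIRKO and 0.27 in WT, so it moved with the groups in most contrasts against WT. Prss2, a pancreatic acinar gene, exceeded 0 log2 CPM in 8 hemizygous libraries, among them WT mice 1586 and 1601, and in 3 homozygous libraries (WT mice 1586 and 1601 and ZZ mouse 1846); these are called the Prss2 libraries. Of 6 adipocyte markers, Lep is in neither table and Adipoq and Plin1 are only in the hemizygous one; the summed level of the list ranged from 18.4 to 31.2 CPM over all hemizygous libraries. In bulk liver, fewer cells of a type and less RNA per cell cannot be told apart.

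All 10 members passed the filter on low values. Per kilobase of exon and averaged over the hemizygous libraries, Dgat2 was the highest at 7.35 log2 units, followed by Mlxipl at 6.26, Thrsp at 6.23, Acly at 5.54, Fasn at 5.49 and Srebf1 at 5.32. Gpam stood at 4.70, Acacb at 3.03 and Acaca at 1.51, and Pnpla3 was the lowest at -0.76. The members also differed in how much mice of a group varied. The within-group SD of Thrsp was 0.92 log2 units among hemizygous and 1.10 among homozygous libraries, above 96.5% and 98.0% of all genes tested. Fasn (0.55 and 0.52) and Acacb (0.53 and 0.69) also varied more than most genes, whereas Dgat2 (0.24 and 0.20) and Mlxipl (0.26 and 0.16) lay close to the median of 0.24 and 0.22.

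Across 15 comparisons, 19 of 150 member changes had an adjusted p under 0.05 (limma over all genes of a table, Benjamini-Hochberg, two-sided). The comparisons share groups, and the pair of LIRKO against WT contrasts uses the same mice, so the counts are not independent. Thrsp passed in 6 comparisons, Dgat2 in 5, Mlxipl in 3, and Srebf1, Acly, Acacb, Gpam and Pnpla3 in 1 each. Acaca and Fasn passed in none.

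Counts of members are read against the share of all genes called in the same comparison. With the transgene, 1 of 10 members rose in Z against WT, where 10.4% of all genes passed and 5.89% rose, and 1 of 10 in Zstar against WT, where 16.0% passed and 8.58% rose. With insulin receptor loss, 1 rose and 1 fell in LIRKO against WT of the hemizygous table, where 23.7% of all genes passed (11.8% higher and 12.0% lower), and 1 fell in the homozygous table, where 27.8% passed and 14.0% fell. Z LIRKO against Z had the most called members, 4 of 10, all lower, where 34.3% of all genes passed and 17.7% fell. In Z LIRKO F1KO, 3 members fell against Zstar, where 23.5% of all genes passed and 11.1% fell, and 1 rose against Z LIRKO, where 22.5% passed and 11.5% rose. In homozygous livers, 2 members fell in ZZ against WT (30.3% of all genes passed and 14.2% fell), 1 in ZZ LIRKO against ZZ (26.8% and 13.6%) and 2 in ZZ LIRKO against LIRKO (10.6% and 3.73%). In Zstar against Z (9.47% of all genes passed) and Z LIRKO against LIRKO (1.10%), limma called 0 members. Mlxipl in Z LIRKO against LIRKO was the only member of these contrasts with an unadjusted p under 0.05, and its limma adjusted p was 0.217. The members' share lay furthest above that of all genes in the same direction in Z LIRKO against Z, Z LIRKO F1KO against Zstar and ZZ LIRKO against LIRKO. The other counts in a called direction were within a single gene of the all-gene share in that direction. Counted in either direction, fewer members than the all-gene share passed in several contrasts. Among them are LIRKO against WT of the homozygous table (1 of 10 beside 27.8%), ZZ LIRKO against ZZ (1 beside 26.8%), ZZ against WT (2 beside 30.3%) and Z LIRKO F1KO against Z LIRKO (1 beside 22.5%). No test of the list was made. The median change of the 10 members was -0.53 log2 units in Z LIRKO against Z, beside 0.02 over all genes, and 0.30 in Z against WT, beside -0.01. Thrsp was the only member called in Z against WT, and medians of the other contrasts are not given.

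Thrsp was the member that moved most. In hemizygous livers its level was high with the transgene, low when the insulin receptor was lost on the transgene, and high again when Foxo1 was lost too. Thrsp stood at 8.00, 8.29, 8.40, 8.74 and 7.32 log2 CPM in the Z LIRKO F1KO mice and at 7.00, 4.16, 4.48 and 4.74 in the Z LIRKO mice. The Zstar mice had 10.28, 8.60, 9.36, 10.10 and 8.00, and the Z mice 7.16, 9.09, 8.95, 9.01 and 9.43. In LIRKO mice Thrsp was 5.53, 4.62, 6.97 and 4.61 log2 CPM, against 5.99, 6.24 and 6.21 in WT mice. Every Zstar, Z and Z LIRKO F1KO mouse was above every WT mouse, and all Z LIRKO mice but mouse 1412 were below every WT mouse. The group means spanned 4.17 log2 units, in the order Zstar (9.27), Z (8.73), Z LIRKO F1KO (8.15), WT (6.15), LIRKO (5.43) and Z LIRKO (5.09). Zstar and Z overlapped, as did Z and Z LIRKO F1KO, LIRKO and WT, and Z LIRKO and LIRKO; Z LIRKO F1KO and WT, which are also neighbours in that order, did not.

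**Figure D1:**
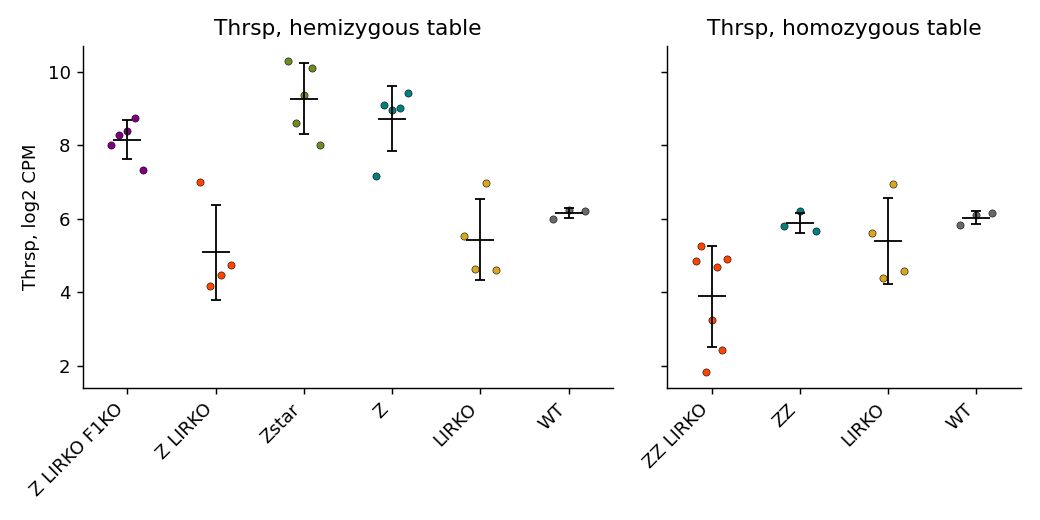
Thrsp in log2 CPM (vertical axis) for each mouse by group, hemizygous table on the left and homozygous table on the right; points are mice, the wide dash is the group mean and the bars are 1 SD. The Z LIRKO mice lie at 4.16 to 7.00, below the Z mice at 7.16 to 9.43, and the Z LIRKO F1KO mice lie at 7.32 to 8.74; in the homozygous table the ZZ mice lie at 5.68 to 6.20, beside the WT mice at 5.82 to 6.15.

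Thrsp was 5.98-fold higher in Z than in WT (log2 change 2.58 ± 0.61 SE, limma adjusted p = 0.0072) and 8.69-fold higher in Zstar than in WT (3.12 ± 0.61, limma adjusted p = 0.0012). Both calls were lost with the clock value as a covariate (1.52, adjusted p = 0.235, and 1.79, adjusted p = 0.138) and among libraries with a clock value of at least 1 (2.91, adjusted p = 0.0904, and 3.06, adjusted p = 0.0502), where WT mouse 1601 alone stood for WT and was assumed to vary like the other groups. The Z call also missed the threshold without the Prss2 libraries (3.13, adjusted p = 0.0558). The clock value moved with this result, and its part in the result was not tested further. Within Z, mouse 1410 had both the lowest Thrsp and the lowest clock value, 0.03 against 1.60 to 3.59 in the other Z mice.

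With insulin receptor loss on the transgene Thrsp fell by 3.63 ± 0.56 log2 units in Z LIRKO against Z, a 12.4-fold lower level (limma adjusted p = 2.96e-05), and it passed in all 18 alternatives, with changes between -4.27, without Z LIRKO mouse 1412, and -3.25. Clock values were 2.70 to 3.80 in Z LIRKO and 0.03 to 3.59 in Z. In LIRKO against WT the change was -0.72 ± 0.64 (limma adjusted p = 0.445). The difference between the 2 effects was -2.92 ± 0.85, which did not pass over all genes (limma adjusted p = 0.222, unadjusted p = 0.00209), in a contrast where 0.199% of all genes and 0 members were called. Macrophage and endothelial markers moved with Z LIRKO: 5 of 5 and 4 of 4 were higher than in Z, with summed levels of 408 to 486 CPM in Z LIRKO against 257 to 340 CPM in Z for the macrophage list. Of 5 hepatocyte markers 3 were lower and 1 higher, with sums of 55000 to 62130 CPM in Z LIRKO against 72760 to 112100 CPM in Z. Their part in the result was not tested.

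Z LIRKO F1KO livers had 8.33-fold more Thrsp than Z LIRKO livers (3.06 ± 0.56, limma adjusted p = 0.000313), a contrast that crosses cohorts. It passed in all 18 alternatives, with changes between 2.36, without the Prss2 libraries, and 3.69, without Z LIRKO mouse 1412. Within its own cohort the change of Z LIRKO F1KO against Zstar was -1.12 ± 0.53 (limma adjusted p = 0.129), and the 2 groups overlapped. The comparison of both deletions against the transgene alone with the receptor deletion against the transgene alone, each within a cohort, gave a difference of 2.52 ± 0.77 (limma adjusted p = 0.0486), in a contrast where 6.63% of all genes passed (3.27% in the positive direction) and Thrsp was the 1 member called. That call lies close to the threshold: it was lost with voom weights (2.55, adjusted p = 0.0553), with the 4 compared groups alone (2.52, adjusted p = 0.0619), without the Prss2 libraries (2.24, adjusted p = 0.21) and without any one of 14 mice. These are Z mice 1411, 1442, 1443 and 1445, Z LIRKO mice 1427, 1428 and 1450, Z LIRKO F1KO mice 169, 170, 201 and 206 and Zstar mice 182, 249 and 285, and the values without them ran from 2.20 to 2.56. Without Z LIRKO mouse 1412 the difference was 3.15 (adjusted p = 0.00741).

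In the homozygous table Thrsp was lower in ZZ LIRKO than in ZZ, and ZZ lay beside WT. The ZZ LIRKO mice ranged from 1.83 to 5.26 log2 CPM with a median of 4.69, against 5.81, 6.20 and 5.68 in ZZ, 5.60, 4.40, 6.95 and 4.58 in LIRKO and 5.82, 6.10 and 6.15 in WT. All ZZ LIRKO mice were below all ZZ mice, while ZZ and WT overlapped. Thrsp fell by 2.01 ± 0.68 in ZZ LIRKO against ZZ (limma adjusted p = 0.037), and its change in ZZ against WT was -0.13 ± 0.80 (limma adjusted p = 0.922). The fall missed the threshold with the 2 groups alone (-2.01, adjusted p = 0.0615), without the Prss2 libraries (-2.12, adjusted p = 0.0985), at clock values of at least 1 (-1.71, adjusted p = 0.416) and without any one of ZZ mice 1682, 1809 and 1846 or ZZ LIRKO mice 1813, 1855 and 1876 (-2.12 to -1.67). Beside this contrast 4 of 4 cholangiocyte markers and 2 of 4 stellate cell markers were lower and 4 of 4 endothelial markers higher in ZZ LIRKO. The stellate sums were 235 to 432 CPM in ZZ LIRKO against 474 to 557 CPM in ZZ, without overlap, and the part of these markers in the result was not tested. Hemizygous and homozygous transgenes stand in separate tables, and the difference between them was not tested.

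Srebf1 differed little between hemizygous groups and, within the homozygous table, was lowest in ZZ LIRKO. Its hemizygous group means lay between 7.50 in WT and 8.05 in Zstar, a span of 0.55 log2 units, and every pair of groups overlapped. The changes were 0.44 ± 0.29 in Z against WT, 0.52 ± 0.31 in LIRKO against WT and -0.16 ± 0.27 in Z LIRKO against Z, and none of them passed (limma adjusted p = 0.372, 0.226 and 0.679). In the homozygous table Srebf1 stood at 6.54, 7.04, 6.40, 8.09, 6.31, 5.42 and 5.01 log2 CPM in ZZ LIRKO, at 7.28, 7.78 and 7.41 in ZZ, at 8.00, 8.00, 8.38 and 6.97 in LIRKO and at 8.01, 7.07 and 7.31 in WT. All ZZ LIRKO mice except mouse 1855 were below all ZZ mice. Srebf1 fell by 1.44 ± 0.44 in ZZ LIRKO against LIRKO, a 2.70-fold lower level (limma adjusted p = 0.0463); against ZZ the change was -1.09 ± 0.48 (limma adjusted p = 0.107).

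The Srebf1 call rests on several mice. ZZ LIRKO mice 1876 and 1877 had the lowest Srebf1 of the table and also the lowest clock values of their group, -1.90 and -0.35 against 1.95 to 3.45 in the other 5. Without both of them the change against LIRKO was -0.96 (adjusted p = 0.0928), and with the clock value as a covariate it was -0.87 (adjusted p = 0.201). It also missed the threshold with voom weights (-1.47), quantile normalization (-1.34), the 2 groups alone (-1.44), no Prss2 libraries (-1.44), clock values of at least 1 (-0.96), and without any one of LIRKO mice 1468, 1474 and 1483 or ZZ LIRKO mice 1783, 1813, 1858, 1876 and 1877 (-1.46 to -1.20). No LIRKO or ZZ LIRKO library of the homozygous table is a Prss2 library. Leaving those out therefore kept every mouse of this contrast and altered only the spread estimated over all groups. Against ZZ, the clock covariate gave -1.50 with an adjusted p of 0.013, and leaving out ZZ LIRKO mouse 1855 gave -1.37 with an adjusted p of 0.0175.

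**Figure D2:**
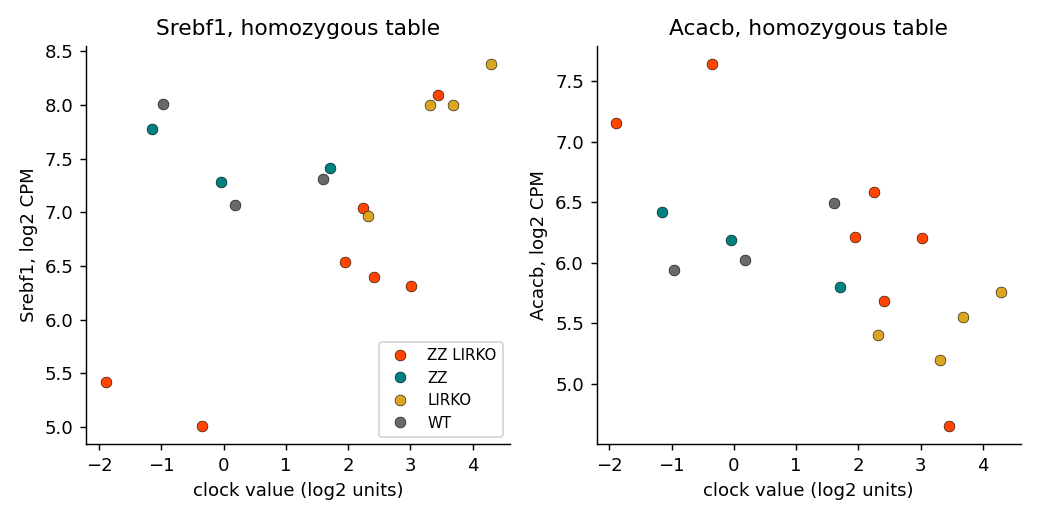
Srebf1 (left) and Acacb (right) in log2 CPM (vertical axes) against the clock value of the library in log2 units (horizontal axes), homozygous table; each point is 1 mouse, coloured by group. The 2 ZZ LIRKO mice at clock values of -1.90 and -0.35 have the lowest Srebf1, 5.42 and 5.01, and the highest Acacb, 7.15 and 7.64.

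Mlxipl was lower in both homozygous transgene groups. It stood at 8.52, 8.33, 8.05, 8.65, 8.45, 8.36 and 8.13 log2 CPM in ZZ LIRKO and at 8.17, 8.33 and 8.17 in ZZ, against 9.21, 8.87, 9.07 and 9.11 in LIRKO and 9.02, 8.98 and 8.99 in WT. No mouse with the homozygous transgene reached the lowest mouse without it. Mlxipl fell by 0.77 ± 0.13 in ZZ against WT, 1.71-fold lower (limma adjusted p = 0.000472), and by 0.71 ± 0.10 in ZZ LIRKO against LIRKO, 1.63-fold lower (limma adjusted p = 0.000551). ZZ LIRKO against LIRKO passed in all 21 alternatives. Beside ZZ against WT, 4 of 4 cholangiocyte and 3 of 4 stellate cell markers were higher and 4 of 5 hepatocyte markers lower in ZZ. The hepatocyte sums were 54380 to 76910 CPM in ZZ against 114700 to 128000 CPM in WT, and the stellate sums 474 to 557 CPM in ZZ against 155 to 183 CPM in WT. Beside ZZ LIRKO against LIRKO, 1 of 4 cholangiocyte and 2 of 4 stellate cell markers were higher in ZZ LIRKO. Cholangiocyte sums were 10.8 to 14.7 CPM in ZZ LIRKO against 6.42 to 8.91 CPM in LIRKO, and stellate sums 235 to 432 CPM in ZZ LIRKO against 210.1 to 218 CPM in LIRKO, both without overlap. The part of these markers in the result was not tested. Scaling also bears on ZZ against WT. Without scaling between libraries the median of all genes moved to 0.23 there and the Mlxipl change was -0.50. With quantile normalization the Mlxipl change was -0.49, and both values were still past the threshold. The ZZ against WT call was lost only at clock values of at least 1 (-0.82), which left 1 mouse in each of ZZ and WT.

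In the hemizygous table Mlxipl was within 0.68 log2 units over the 6 group means. It fell by 0.47 ± 0.15 in Z LIRKO F1KO against Zstar (limma adjusted p = 0.0274). The Z LIRKO F1KO mice had 8.95, 8.59, 8.02, 7.87 and 8.43 log2 CPM, against 8.60, 8.97, 8.69, 9.06 and 8.91 in Zstar, and the groups overlapped through mouse 169. The call was lost without scaling (-0.26, adjusted p = 0.208, where the median of all genes moved to 0.20), with quantile normalization (-0.22, adjusted p = 0.346), with the 2 groups alone (-0.47, adjusted p = 0.102), without the Prss2 libraries (-0.36, adjusted p = 0.218), and without any one of Z LIRKO F1KO mice 201 and 206 or Zstar mice 182 and 251 (-0.44 to -0.35). With the hemizygous transgene Mlxipl changed by -0.13 ± 0.18 in Z against WT and by -0.002 ± 0.18 in Zstar against WT. In Z LIRKO against LIRKO it changed by -0.43 ± 0.17 (limma adjusted p = 0.217). With receptor loss it changed by -0.11 ± 0.16 in Z LIRKO against Z. None of these changes passed.

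**Figure D3:**
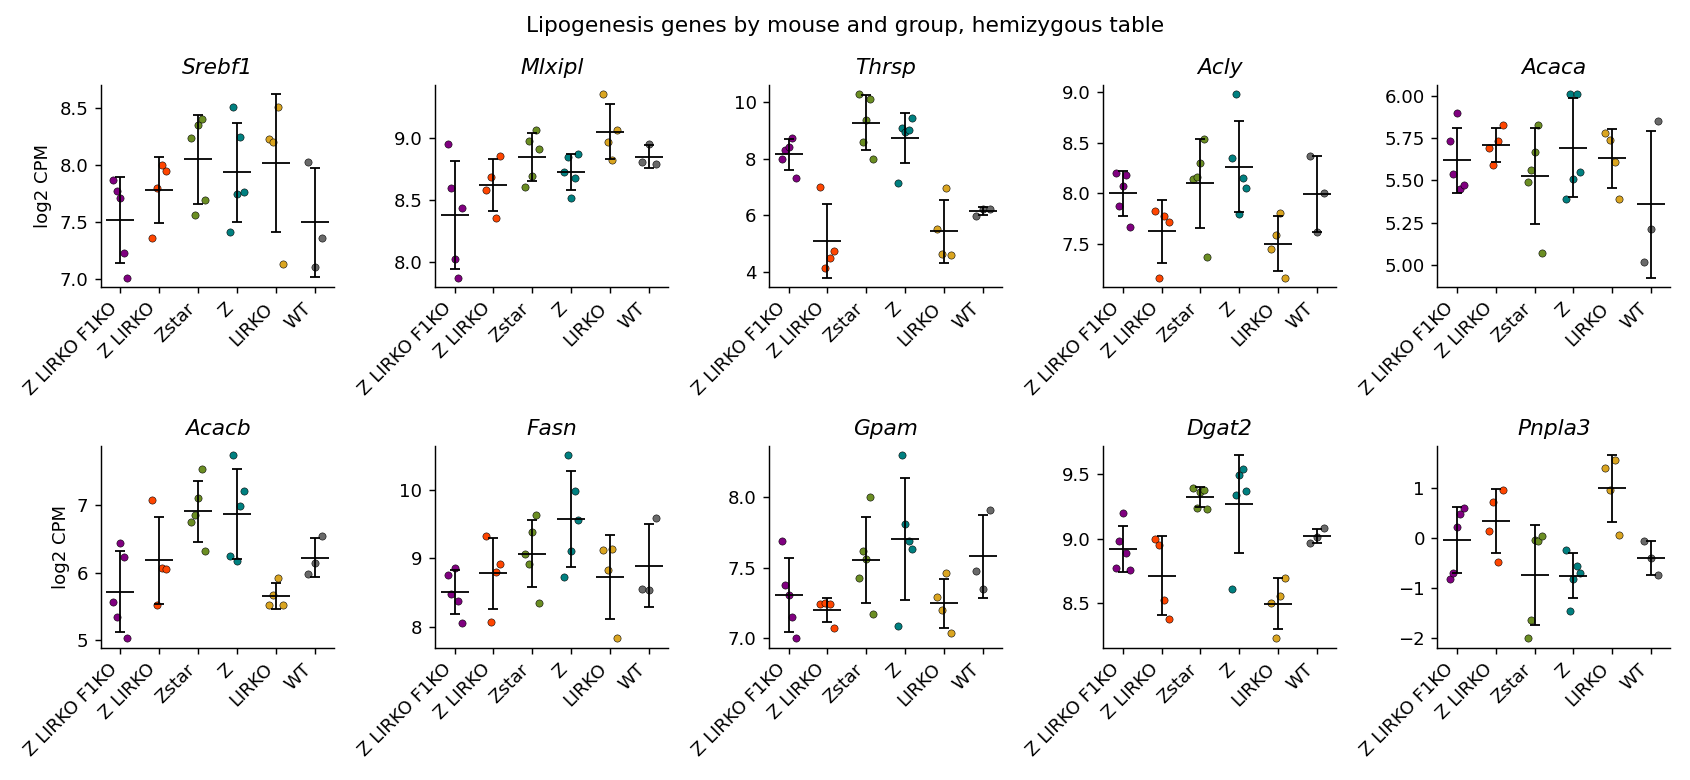
The 10 members in log2 CPM (vertical axes, a separate scale for each gene) for each mouse of the 6 hemizygous groups; points are mice, the wide dash is the group mean and the bars are 1 SD. Thrsp and Dgat2 are lower in the Z LIRKO and LIRKO columns than in Zstar and Z, with Dgat2 means of 8.71 in Z LIRKO and 8.50 in LIRKO against 9.32 in Zstar and 9.27 in Z, while the Acaca means lie between 5.36 and 5.71.

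Among the enzymes of fatty acid synthesis, Acly and Acacb were called in 1 hemizygous contrast each. Acly fell by 0.64 ± 0.22 in Z LIRKO against Z, 1.56-fold lower (limma adjusted p = 0.0282). It stood at 7.83, 7.17, 7.78 and 7.72 log2 CPM in Z LIRKO and at 8.35, 8.98, 7.80, 8.15 and 8.05 in Z, with overlap only through Z mouse 1442 and Z LIRKO mouse 1412. The call was lost without scaling (-0.56, adjusted p = 0.0535), with the clock covariate (-0.60, adjusted p = 0.0504), without the Prss2 libraries (-0.47, adjusted p = 0.253), and without Z mouse 1411 (-0.46) or Z LIRKO mouse 1427 (-0.49). Over both tables Acly changed by -0.49 ± 0.25 and -0.56 ± 0.30 in LIRKO against WT and by -0.47 ± 0.27 in ZZ LIRKO against ZZ, none of which passed.

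Acacb fell by 1.19 ± 0.31 in Z LIRKO F1KO against Zstar, 2.28-fold lower (limma adjusted p = 0.00631). The Z LIRKO F1KO mice had 5.57, 5.34, 6.44, 6.23 and 5.03 log2 CPM, against 6.75, 6.86, 7.11, 7.54 and 6.32 in Zstar. The groups overlapped only between Z LIRKO F1KO mouse 201 and Zstar mouse 285. The call missed the threshold without the Prss2 libraries (-1.08, adjusted p = 0.0526). Here 5 of 5 macrophage markers were higher in Z LIRKO F1KO, with sums of 369 to 581 CPM against 205 to 242 CPM in Zstar, as were 2 of 4 endothelial and 2 of 4 stellate cell markers; their part in the result was not tested. In Z LIRKO against Z the Acacb change was -0.69 ± 0.32 (limma adjusted p = 0.103), with Z LIRKO mouse 1412 at 7.08 and the other 3 at 5.52 to 6.08; without that mouse it was -0.99 (adjusted p = 0.0235). In LIRKO against WT every LIRKO mouse was below every WT mouse in both tables, yet the changes of -0.57 ± 0.37 and -0.67 ± 0.48 did not pass (limma adjusted p = 0.279 and 0.314). With only those 2 groups in the fit, and so with their own smaller spread, they did (adjusted p = 0.0246 and 0.02).

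In the homozygous table Acacb ran from 4.65 to 7.64 log2 CPM among the ZZ LIRKO mice, the widest range of any group for this gene. Mice 1876 and 1877, at 7.15 and 7.64, were the highest of the table, and mouse 1855 was the lowest. The same mice stood at the other ends for Srebf1, with 1876 and 1877 lowest and 1855 highest within ZZ LIRKO. The change of ZZ LIRKO against LIRKO was 0.82 ± 0.39 (limma adjusted p = 0.197), and 1.10 without mouse 1855 (adjusted p = 0.0259).

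Fasn and Acaca passed in no main comparison. Fasn stood at 9.33, 8.07, 8.80 and 8.91 log2 CPM in Z LIRKO and at 8.73, 10.51, 9.11, 9.98 and 9.56 in Z. Z mice 1410 and 1442 lay within the Z LIRKO range and the other 3 Z mice above it, and the change was -0.80 ± 0.34 (limma adjusted p = 0.069). It passed without Z mouse 1410 (-1.01, adjusted p = 0.0231), without Z LIRKO mouse 1412 (-0.99, adjusted p = 0.0417), with the clock covariate (-0.98, adjusted p = 0.0249) and at clock values of at least 1 (-1.01, adjusted p = 0.0208). In LIRKO against WT Fasn changed by -0.16 ± 0.39 among the hemizygous libraries and by -0.29 ± 0.36 among the homozygous ones, and in ZZ LIRKO against ZZ by -0.56 ± 0.32. Acaca changed by between -0.17 and 0.33 log2 units in the 8 hemizygous contrasts of group pairs. In ZZ LIRKO against ZZ it changed by -0.29 ± 0.12 (limma adjusted p = 0.095), and it passed without scaling (-0.46), with quantile normalization (-0.35), without the Prss2 libraries (-0.40) and without ZZ mouse 1846 (-0.40). In ZZ against WT it changed by 0.23 ± 0.14 (limma adjusted p = 0.25), and it passed without scaling (0.50), without the Prss2 libraries (0.54) and without WT mouse 1601 (0.40).

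Of the genes for glycerolipid assembly, Dgat2 was lower in LIRKO livers in all but the homozygous transgene background. It stood at 8.50, 8.23, 8.56 and 8.70 log2 CPM in LIRKO and at 8.97, 9.01 and 9.08 in WT, without overlap, and fell by 0.52 ± 0.18 in the hemizygous table, 1.44-fold lower (limma adjusted p = 0.0328). The same mice gave -0.53 ± 0.15 in the homozygous table (limma adjusted p = 0.0152). Among hemizygous libraries, where 23.7% of all genes passed, 3 of 5 macrophage markers passed as higher and 2 of 5 hepatocyte markers as lower in LIRKO. The hepatocyte sums were 45700 to 75720 CPM in LIRKO against 105900 to 126200 CPM in WT, without overlap. The macrophage sums were 294 to 374 CPM in LIRKO against 229 to 266 CPM in WT, without overlap. The endothelial sums (284 to 313 CPM in LIRKO against 221 to 262 CPM in WT) and the stellate sums (220 to 247 CPM in LIRKO against 153 to 180.5 CPM in WT) did not overlap either. Among homozygous libraries, where 27.8% of all genes passed, 4 of 5 macrophage markers passed as higher and 2 of 5 hepatocyte markers as lower. The hepatocyte sums there were 46360 to 70760 CPM in LIRKO against 114700 to 128000 CPM in WT, without overlap. The part of these markers in the result was not tested. On the hemizygous transgene the Z LIRKO mice had 9.00, 8.95, 8.53 and 8.38, against 8.61, 9.34, 9.49, 9.54 and 9.37 in Z, and overlapped only through Z mouse 1410. Dgat2 fell by 0.56 ± 0.16 there (limma adjusted p = 0.00763). In Z LIRKO F1KO it stood at 8.77, 8.98, 9.20, 8.89 and 8.76, against 9.39, 9.24, 9.36, 9.38 and 9.23 in Zstar, without overlap, and fell by 0.40 ± 0.15 (limma adjusted p = 0.0466).

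The Dgat2 calls differed in how well they held. Z LIRKO against Z passed in 17 of 18 alternatives and was lost with the 2 groups alone (-0.56, adjusted p = 0.0538). LIRKO against WT of the homozygous table passed in 14 of 16, and was lost without the Prss2 libraries (-0.45, adjusted p = 0.165) and without WT mouse 1601 (-0.47, adjusted p = 0.0561). Of the hemizygous LIRKO against WT alternatives 9 of 16 passed: the call was lost without the Prss2 libraries (-0.47), at clock values of at least 1 (-0.59), and without any one of LIRKO mice 1468 and 1474 or WT mice 1564, 1586 and 1601 (-0.55 to -0.43), while the clock covariate gave -0.97. Z LIRKO F1KO against Zstar passed in 7 of 19, and was lost without scaling (-0.19), with quantile normalization (-0.12), without the Prss2 libraries (-0.33) and without any one of Z LIRKO F1KO mice 169, 170, 206 and 207 or the 5 Zstar mice 120, 182, 249, 251 and 285 (-0.43 to -0.36).

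**Figure D4:**
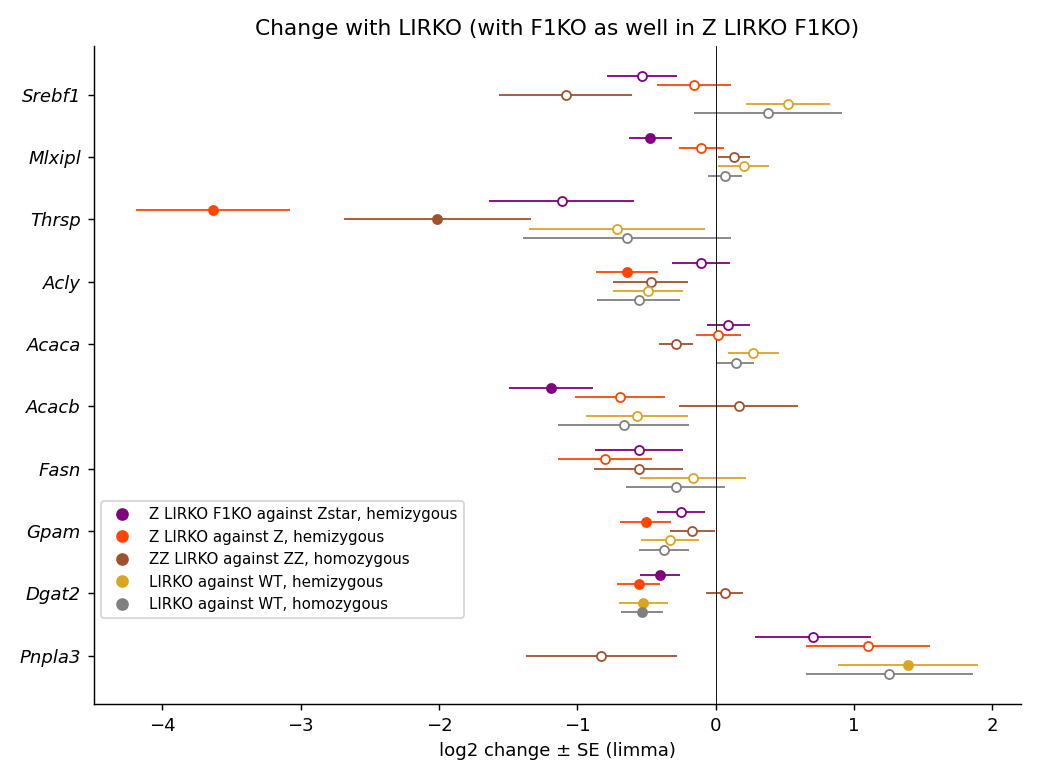
Log2 change (horizontal axis, bars 1 SE) of each member in 5 contrasts with the insulin receptor deletion, the first of which deletes Foxo1 as well; filled points had a limma adjusted p under 0.05 and open points did not. Thrsp at -3.63 in Z LIRKO against Z lies far to the left of its value of -0.72 in LIRKO against WT, and Dgat2 lies between -0.56 and -0.40 in every contrast except ZZ LIRKO against ZZ, at 0.06.

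In homozygous livers Dgat2 was already low without the receptor deletion. It stood at 8.13, 8.11 and 8.62 log2 CPM in ZZ against 8.91, 8.96 and 9.11 in WT, and fell by 0.71 ± 0.16, 1.63-fold lower (limma adjusted p = 0.00344). Unscaled values gave -0.43 and quantile normalization -0.45, both past the threshold, and clock values of at least 1 gave -0.49 (adjusted p = 0.25). The ZZ LIRKO mice ranged from 8.12 to 8.65 with a median of 8.33, and the change against ZZ was 0.06 ± 0.14 (limma adjusted p = 0.757). The receptor effect in ZZ minus that in WT was 0.60 ± 0.20 for Dgat2, which did not pass (limma adjusted p = 0.0803), in a contrast where 7.75% of all genes and 0 members were called and 3 members had an unadjusted p under 0.05. It passed with the clock covariate (0.74), without ZZ LIRKO mice 1876 and 1877 (0.68) and without ZZ mouse 1846 (0.76).

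Gpam fell by 0.51 ± 0.18 in Z LIRKO against Z, 1.42-fold lower (limma adjusted p = 0.0348). The Z LIRKO mice lay close together, at 7.24, 7.25, 7.24 and 7.07 log2 CPM, against 7.09, 8.30, 7.81, 7.69 and 7.63 in Z, where only mouse 1410 fell among them. The call passed in 9 of 18 alternatives. It was lost without scaling (-0.42), with the 2 groups alone (-0.51), and without any one of Z mice 1411, 1442 and 1443 or Z LIRKO mice 1412, 1427, 1428 and 1450 (-0.52 to -0.36). Gpam changed by -0.33 ± 0.21 and -0.38 ± 0.18 in LIRKO against WT of the 2 tables, and neither passed.

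Pnpla3 was the lowest of the members, at or above 0 log2 CPM in 11 of 26 hemizygous and 7 of 17 homozygous libraries. It stood at 1.40, 0.97, 1.56 and 0.07 log2 CPM in LIRKO, against -0.05, -0.40 and -0.73 in WT, without overlap, and rose by 1.39 ± 0.51, 2.62-fold (limma adjusted p = 0.0477). Z LIRKO had 0.15, 0.73, -0.47 and 0.97, against -0.24, -1.47, -0.81, -0.55 and -0.70 in Z, a change of 1.10 ± 0.45 (limma adjusted p = 0.0581). In the homozygous table, the change in LIRKO against WT was 1.26 ± 0.61 (limma adjusted p = 0.134) and that in ZZ LIRKO against ZZ was -0.83 ± 0.55 (limma adjusted p = 0.28), where ZZ mouse 1809 stood alone at 1.97. The one Pnpla3 call passed in 7 of 16 alternatives, among them log2(CPM + 1) with a change of 0.80, and was lost with the clock covariate (1.31), without the Prss2 libraries (1.05), at clock values of at least 1 (1.73), and without any one of LIRKO mice 1468, 1474 and 1483 or WT mice 1564, 1586 and 1601 (1.21 to 1.56).

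**Figure D5:**
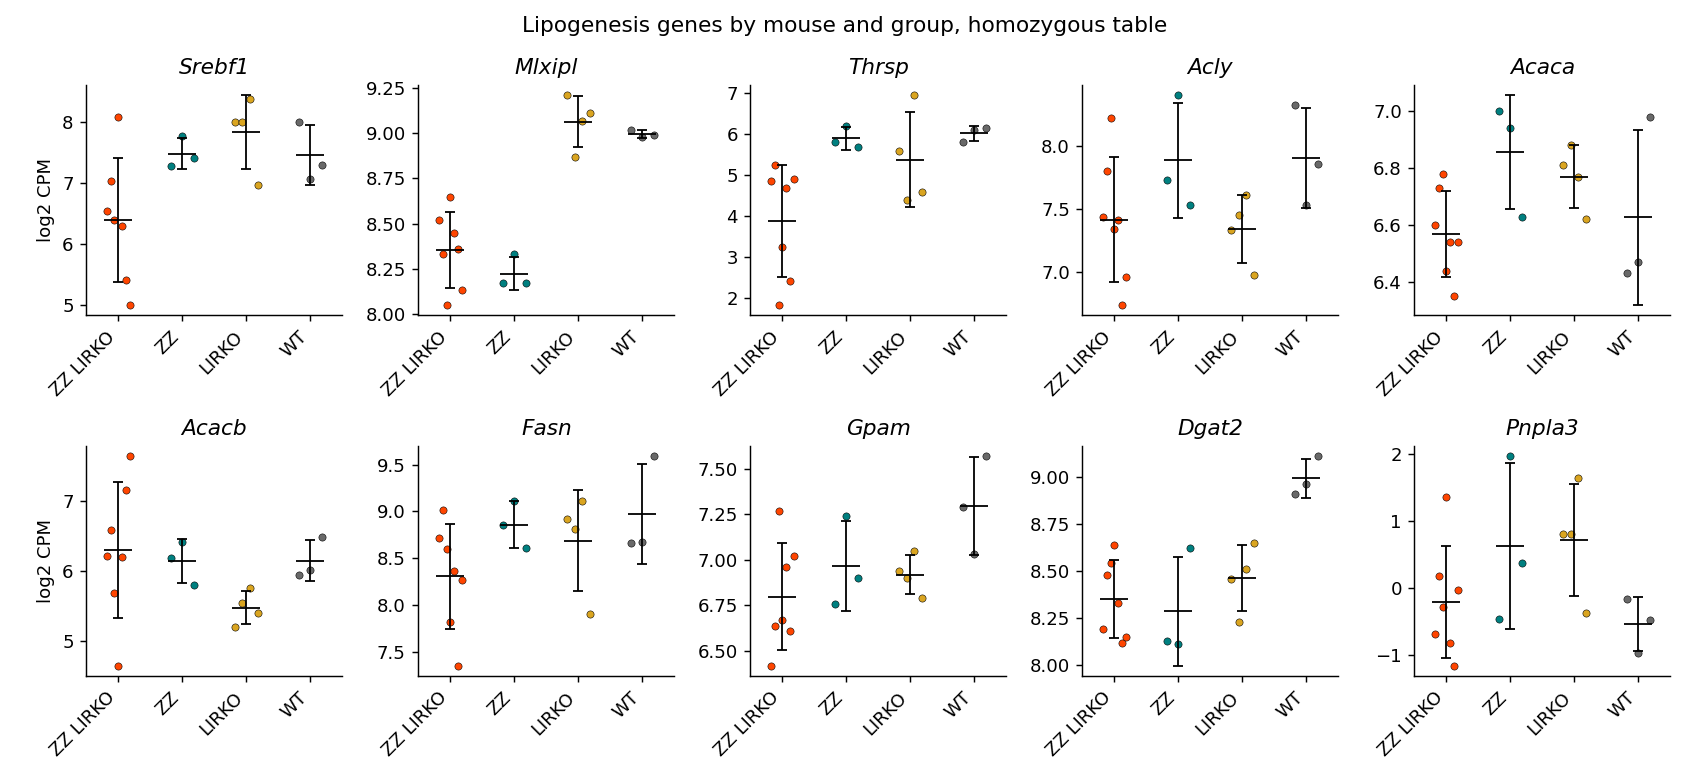
The 10 members in log2 CPM (vertical axes, a separate scale for each gene) for each mouse of the 4 homozygous groups; points are mice, the wide dash is the group mean and the bars are 1 SD. Mlxipl lies at 8.05 to 8.65 in ZZ LIRKO and 8.17 to 8.33 in ZZ, below LIRKO and WT. Within ZZ LIRKO the SD is largest for Thrsp at 1.37, followed by Srebf1 at 1.02 and Acacb at 0.98.

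The neighbouring genes of the pathway were grouped into 5 lists. In Z LIRKO against Z, 9 of 17 genes of precursor and NADPH supply fell and 0 rose, beside 17.7% of all genes lower. They include Slc25a1, the mitochondrial citrate carrier (-0.84 ± 0.12, limma adjusted p = 1.15e-05), Idh1, a cytosolic NADPH source (-0.78 ± 0.13, limma adjusted p = 7.75e-05), and Gpd1, which makes glycerol 3-phosphate (-1.01 ± 0.17, limma adjusted p = 0.000101). Of 16 further regulators 3 fell and 1 rose; Insig1, a sterol-sensitive retention protein of SREBPs and itself an SREBP target, fell by 1.21 ± 0.24 (limma adjusted p = 0.000397) and Mlx, the partner of ChREBP, by 0.56 ± 0.12 (limma adjusted p = 0.00123). Of 8 elongation and desaturation genes 2 fell and 1 rose, with Hsd17b12, an elongation reductase, lower by 1.10 ± 0.11 and Scd1, the stearoyl-CoA desaturase, lower by 2.54 ± 0.59 (limma adjusted p = 6.59e-08 and 0.00186). Of 13 tested glycerolipid genes 3 fell, with Agpat2, the next acyltransferase after Gpam, at -0.78 ± 0.14 (limma adjusted p = 0.000118). Of 14 tested genes of lipid droplets and lipolysis 8 fell and 1 rose. Fitm1, a droplet assembly protein, fell by 2.91 ± 0.38 and G0s2, the inhibitor of adipose triglyceride lipase, by 2.41 ± 0.45, while Pnpla2, which encodes that lipase, rose by 0.81 ± 0.15 (limma adjusted p = 3.3e-06, 0.000288 and 0.000203).

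In LIRKO against WT of the hemizygous table, where 12.0% of all genes were lower and 11.8% higher, the same lists had 3 lower and 2 higher of 17 supply genes, 4 and 1 of 16 regulators, 3 and 2 of 8 elongation and desaturation genes, 2 and 3 of 13 glycerolipid genes and 6 and 1 of 14 droplet genes. G0s2 fell by 3.75 ± 0.52 (by 2.78 without the Prss2 libraries) and Pnpla2 rose by 1.12 ± 0.17 (limma adjusted p = 1.13e-05 and 3.31e-05), and Agpat2 fell by 0.93 ± 0.15 (limma adjusted p = 9.68e-05). Slc2a2, the hepatocyte glucose transporter, rose by 1.24 ± 0.23 (limma adjusted p = 0.000294); with the clock covariate it was 0.51 (adjusted p = 0.108). Scd1 was lower by 2.33 ± 0.67 (limma adjusted p = 0.0133), and this call was lost without WT mouse 1564 (-1.85) or 1601 (-2.04), with the clock covariate (-2.48) and at clock values of at least 1 (-2.89); without the Prss2 libraries the change was -3.28 and without WT mouse 1586 -3.09.

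Loss of Foxo1 on Z LIRKO went with higher values of several genes that were low in Z LIRKO, again across cohorts. In Z LIRKO F1KO against Z LIRKO, 4 of 17 supply genes rose and 4 fell, and 5 of 14 droplet genes rose and 2 fell, where 22.5% of all genes passed and 11.5% rose. Fitm1 rose by 2.13 ± 0.38, G0s2 by 1.99 ± 0.45, Slc25a1 by 0.65 ± 0.12 and Hsd17b12 by 0.90 ± 0.11, while Pnpla2 fell by 0.76 ± 0.15 (limma adjusted p = 0.000222, 0.00258, 0.000334, 2.18e-06 and 0.000582). The G0s2 call was lost without the Prss2 libraries (1.78, adjusted p = 0.065). The members Srebf1, Fasn, Gpam and Dgat2 changed by -0.26 ± 0.27, -0.27 ± 0.34, 0.11 ± 0.18 and 0.20 ± 0.16 in the same contrast and did not pass. With each effect taken within a cohort, the difference of effects was 2.00 ± 0.37 for Plin5, a droplet protein that contacts mitochondria. It was 0.73 ± 0.18 for Idh1 and 0.69 ± 0.15 for Hsd17b12 (limma adjusted p = 0.00141, 0.0154 and 0.00617 for Plin5, Idh1 and Hsd17b12). This difference crosses deletions and cohorts together. The control groups themselves differed for Plin5: over the alternatives Zstar against Z ran from -1.26 to -0.86 and passed in 18 of 19.

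With the transgene alone, the glycerolipid list held 3 of 13 genes higher and 0 lower in Z against WT, where 10.4% of all genes passed and 5.89% rose. Genes of the other lists moved both ways in that contrast. Elovl5 (-2.02 to -0.76 over the alternatives, 16 of 17 passed), G0s2 (-2.65 to -1.08, 15 of 17), Fads2, Plin2 and Abhd5 were lower. Pparg (0.57 to 2.58, 14 of 17) and Fitm1 (0.79 to 2.35, 9 of 17) were higher. Lpin1 and Lpin2, the phosphatidate phosphatases that supply diacylglycerol to Dgat2, rose by 2.91 ± 0.52 and 1.71 ± 0.30 (limma adjusted p = 0.000838 and 0.000735), and both passed in all 17 alternatives of that contrast. Their changes ran from 1.86 and 1.08 with the clock covariate (limma adjusted p = 0.0496 and 0.0437) to 4.17 and 2.21. The rise was less steady in Zstar against WT, which crosses cohorts. There Lpin1 passed in 14 of 17 alternatives (0.86 to 3.01) and Lpin2 in 7 of 17 (0.14 to 1.10). Lpin1 averaged 5.64 ± 0.59 log2 CPM in ZZ and 5.95 ± 0.92 in WT of the homozygous table (SD, n = 3 each). In ZZ against WT, 2 of 12 tested glycerolipid genes rose and 2 fell, beside 30.3% of all genes passing and 14.2% lower, with Gpat3, a further glycerol-3-phosphate acyltransferase, higher by 2.42 ± 0.33 (limma adjusted p = 6.09e-05) and Acsl1, a long-chain acyl-CoA synthetase, lower by 1.58 ± 0.26 (limma adjusted p = 0.000333). The Gpat3 change was 3.35 without the Prss2 libraries, and its call was lost at clock values of at least 1 (1.51, adjusted p = 0.114); the Acsl1 call was lost without the Prss2 libraries (-1.05, adjusted p = 0.0644). In ZZ LIRKO against ZZ, 8 of 17 supply genes fell and 4 rose, where 26.8% of all genes passed and 13.6% fell. Glycerolipid genes moved both ways there. Gpat3 fell by 1.88 ± 0.28 (limma adjusted p = 0.000152), and Lpin3 was lower too (-1.289 to -0.642 over the alternatives, 19 of 20 passed). Lpin2 (0.567 to 1.033, 19 of 20) and Lpin1 (0.659 to 1.925, 18 of 20) were higher.

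Levels were also compared between the 2 libraries of each shared mouse. For 9 members the homozygous-table value minus the hemizygous-table value had a median between -0.32 (Gpam) and 0.06 (Mlxipl) over the 7 mice, whereas Acaca was higher by 1.03 to 1.41 in the homozygous table in all 7. Thrsp differed by -0.22 to 0.07 and Dgat2 by -0.05 to 0.03. Smaller shifts, lower in the homozygous table in all 7 mice, were seen for Gpam (-0.412 to -0.195), Acacb (-0.321 to -0.046), Srebf1 (-0.227 to -0.021) and Acly (-0.198 to -0.05). The group values of Acaca and of these genes therefore cannot be set side by side across the tables, and no test was made across them.

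The genes whose levels followed a member most closely over the 26 hemizygous libraries were found by Pearson's r, given here as a description of libraries that share groups and cohorts. Thrsp was followed by Slc46a3 (r = 0.92), Snhg11 (0.91) and Cd276 (0.90), with r of 0.80, 0.37 and 0.34 over the 17 homozygous libraries. For Srebf1 they were Eva1a (0.78, and 0.53 in the homozygous table), Tkt (0.75 and 0.17) and Adarb1 (0.71 and 0.53). Mlxipl had Zfp707 (0.79 and 0.81), Atat1 (0.77 and 0.77) and Irak2 (0.76 and 0.30). Fasn had Aplp2 (0.83 and 0.79) and Zzef1 (0.79 and 0.03), and Pnpla3 had Tagln2 (0.84 and 0.40), Metrnl (0.83 and 0.15) and Map3k1 (0.82 and 0.50).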

How the data were processed

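Liver RNA was sequenced in 43 libraries of 36 mice. Per the submitters' processing notes, reads were handled with STAR 2.0.4b and featureCounts 1.4.5 of the Subread package on GRCm38; the strand setting of the counting is not given in the sources used here. The deposited values are log2 CPM, scaled between libraries by the authors, and whole reads were recovered from them for 100% of values within 0.01 reads. Libraries held 13834431 to 23938315 reads in the hemizygous and 38177840 to 90092990 reads in the homozygous table, so counting error is small beside the spread between mice for all members but Pnpla3. 1 column of per-sample values matched no label and was not used.

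Genes at 0 log2 CPM or more in at least 3 libraries (13596 and 13690) were fitted over all groups of a table with limma 3.58.1 in R 4.3.3 (empirical Bayes with a trend, two-sided, Benjamini-Hochberg over all genes, threshold 0.05), after the procedure was tested on simulated data. Fold changes are on the deposited moderated log2 scale, which understates changes of low genes. Members, list genes and cell type markers counted as higher or lower are those past the adjusted p threshold of 0.05. P-values measure the spread between mice.

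Alternatives were voom weights, log2(CPM + 1), no filter, no scaling between libraries, quantile normalization, the compared groups alone, the clock value as a covariate, no Prss2 libraries and each mouse left out. After seeing the data, libraries with a clock value of at least 1 and the table without ZZ LIRKO mice 1876 and 1877 were added. All 10 members are named. From each list up to 4 genes per comparison, those with the smallest p among the called, could be named, and for 5 members the 3 genes with the highest Pearson's r among genes averaging at least 2 log2 CPM. Some genes that these rules select are not reported here. The members and lists were chosen with earlier results of these data known.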

Additional observations from a re-analysis of the deposited data

Results flagged for a closer look

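Single mice stood apart from the rest of their group in 4 of 70 combinations of member and group with 4 or more mice, by Dixon's criterion, which chance meets in about 1 in 20 groups. Z mouse 1410 was the lowest of its group for Thrsp, at 7.16 log2 CPM with the next mouse at 8.95, and for Dgat2, at 8.61 with the next at 9.34. Z LIRKO mouse 1427 had the lowest Acly of its group, 7.17 with the next at 7.72, and Z LIRKO mouse 1450 the lowest Gpam, 7.07 with the next at 7.24.

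For Thrsp the change with both deletions, Z LIRKO F1KO minus Zstar, differed from that with the receptor deletion alone, Z LIRKO minus Z, by 2.52 log2 units (limma interaction contrast, adjusted p = 0.0486). Each change is within a cohort on the hemizygous transgene, so the difference crosses deletions and cohorts together, and it missed the threshold in 17 of 28 alternatives. Thrsp was lower in the receptor-deleted group in each of the contrasts.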

How the results depend on the processing

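Of 2930 member values recomputed under alternatives, 2799 stayed on their side of the threshold, 102 lost a call and 29 gained one; no called change reversed, and 160 changes that were not called changed sign. The counts of called members that moved by more than 1.5 times were these; every other count, single mice left out apart, moved by at most 1 gene. With the clock value as a covariate they were 0 in Z against WT (1 in the report), 0 in Zstar against WT (1), 1 in LIRKO against WT, hemizygous (2), 2 in ZZ LIRKO against ZZ (1), 1 in ZZ LIRKO against LIRKO (2) and 1 in the receptor effect in ZZ minus that in WT (0). Without the Prss2 libraries they were 0 in Z against WT, LIRKO against WT of both tables, Z LIRKO F1KO against Zstar (3) and the difference of the F1KO and LIRKO effects (1), and 1 in ZZ LIRKO against LIRKO. At clock values of at least 1 they were 0 in Z, Zstar and LIRKO (hemizygous) against WT, ZZ against WT (2) and ZZ LIRKO against ZZ, and 1 in ZZ LIRKO against LIRKO. Without scaling they were 2 in Z LIRKO against Z (4), 1 in Z LIRKO F1KO against Zstar, 2 in ZZ LIRKO against ZZ and 1 in the ZZ difference. Quantile normalization gave 1 in Z LIRKO F1KO against Zstar, 2 in ZZ LIRKO against ZZ and 1 in ZZ LIRKO against LIRKO. Voom weights gave 0 in the F1KO difference and 1 in ZZ LIRKO against LIRKO. The compared groups alone gave 0 in the F1KO difference, 2 in LIRKO against WT of the homozygous table (1), 0 in ZZ LIRKO against ZZ and 1 in ZZ LIRKO against LIRKO. Without ZZ LIRKO mice 1876 and 1877 there was 1 in ZZ LIRKO against LIRKO and 1 in the ZZ difference. Leaving out single mice gave 1 to 2 in Z against WT, 0 to 3 in LIRKO against WT (hemizygous), 2 to 6 in Z LIRKO against Z, 1 to 2 in Z LIRKO F1KO against Zstar, 0 to 1 in the F1KO difference, 2 to 3 in ZZ against WT, 0 to 1 in LIRKO against WT (homozygous), 0 to 1 in ZZ LIRKO against ZZ, 1 to 3 in ZZ LIRKO against LIRKO and 0 to 1 in the ZZ difference. The cause of these changes was not tested; where an alternative leaves 1 WT mouse, its spread is taken from the other groups. Without scaling the median of all genes was 0.20 in Z LIRKO F1KO against Zstar, 0.23 in ZZ against WT and -0.19 in ZZ LIRKO against ZZ. No paired analysis was possible because the groups compared share no mouse number.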
